A study of Arabidopsis thaliana with 21 samples.

Results

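The roots of Arabidopsis thaliana treated for 12 h with AtCEP5 were compared with roots mock-treated for the same time. AtCEP5 belongs to the C-TERMINALLY ENCODED PEPTIDEs (CEPs). The comparison takes the 3 AtCEP5 and the 3 mock RNA-seq libraries of 12 h, 6 of the 21 libraries in the series, across 19938 genes with enough reads to test out of 32833 in the count table. The other libraries were taken before treatment (0 h) or 6 and 24 h after either treatment, 3 per group. By the labels the samples are roots, with root meristem cell as the cell type. The labels name no accession line, genotype, age or dose, no content of the mock treatment, and not whether plants were pooled. The p-values measure the spread between replicate libraries, estimated over all 21 libraries. Nothing says that the replicates came from separate cultures, so this spread may be technical. The series title places the comparison within a study of auxin and cytokinin signalling in root growth.

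CEPs are short secreted peptides that are cut from longer precursors and hydroxylated on prolines. They are perceived by the leucine-rich repeat receptor kinases CEPR1 and CEPR2. They are best known for reporting low nitrogen from roots to shoots and for restraining root growth. In roots, growth rests on auxin, which sets cell division and elongation in the tip, and on cytokinin, which promotes the exit of cells from the meristem. Supply of sugar, nitrate and sulfate from the shoot and the medium feeds that growth and is itself read by gene networks.

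The 12 h libraries held 10812662 to 13990847 counts. AtCEP5 replicate 3 had the fewest and gave 1.96% of them to ribosomal RNA genes, against 0.270–0.440% in the other 5. Pearson's r of log2 CPM (counts scaled to a common library size) across genes was 0.983–0.984 between mock libraries. Between AtCEP5 replicates 1 and 3 it was 0.970, and between the groups it was 0.951–0.966. All 7 root meristem markers were detected, with a summed level of 91.7–107 CPM with AtCEP5 and 96.1–130.2 CPM with mock. No marker of the sets for root cap, root hair, endodermis, xylem, phloem or shoot was at 0 reads in all 6 libraries, but of 4 root cap markers only 1 could be matched (0.927–1.81 CPM with AtCEP5, 0.887–2.24 CPM with mock). The 18 markers of green shoot tissue, chlorophyll-binding and Rubisco genes, summed to 464–786 CPM with AtCEP5, 322–407 CPM with mock and 759–3157 CPM before treatment. Before treatment, replicate 3 stood apart, with the chlorophyll-binding gene LHCB1.3 at 1458 CPM against 190.5 and 228.6 CPM in replicates 1 and 2. The part of these shoot markers in the differences below was not tested. In whole roots, fewer cells of a type and less RNA per cell cannot be told apart.

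After 12 h, 2417 genes (12.1% of those tested) differed between AtCEP5 and mock at an adjusted p under 0.05 in edgeR's quasi-likelihood test. Of these, 1338 (6.71%) were higher with AtCEP5 and 1079 (5.41%) were lower. In what follows, rose and fell mean higher and lower with AtCEP5 than with mock at 12 h for genes that passed this test, and fold changes are log2 values ± standard error. Counts in the gene lists below stand beside these shares of all genes tested, 6.71% that rose and 5.41% that fell. The genes that rose included starvation and darkness genes, branched-chain amino acid breakdown, sugar transporters and a set of defence genes. Those that fell included the flowering repressor homolog ATC, sulfate uptake, flavonol and phenolic glucosylation, and wall-loosening enzymes. Among the called genes 551 rose and 340 fell by at least 1 on the log2 scale, and 52 rose and 24 fell by at least 3. The count fell to 1443 without AtCEP5 replicate 1 and to 1566 without mock replicate 3. The count of genes that fell was 566–691 without any 1 of the 3 mock libraries or AtCEP5 replicates 1 and 2, and 1014 without AtCEP5 replicate 3. The 877 genes that rose without AtCEP5 replicate 1 were also fewer by over 1.5 times.

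**Figure D1:**
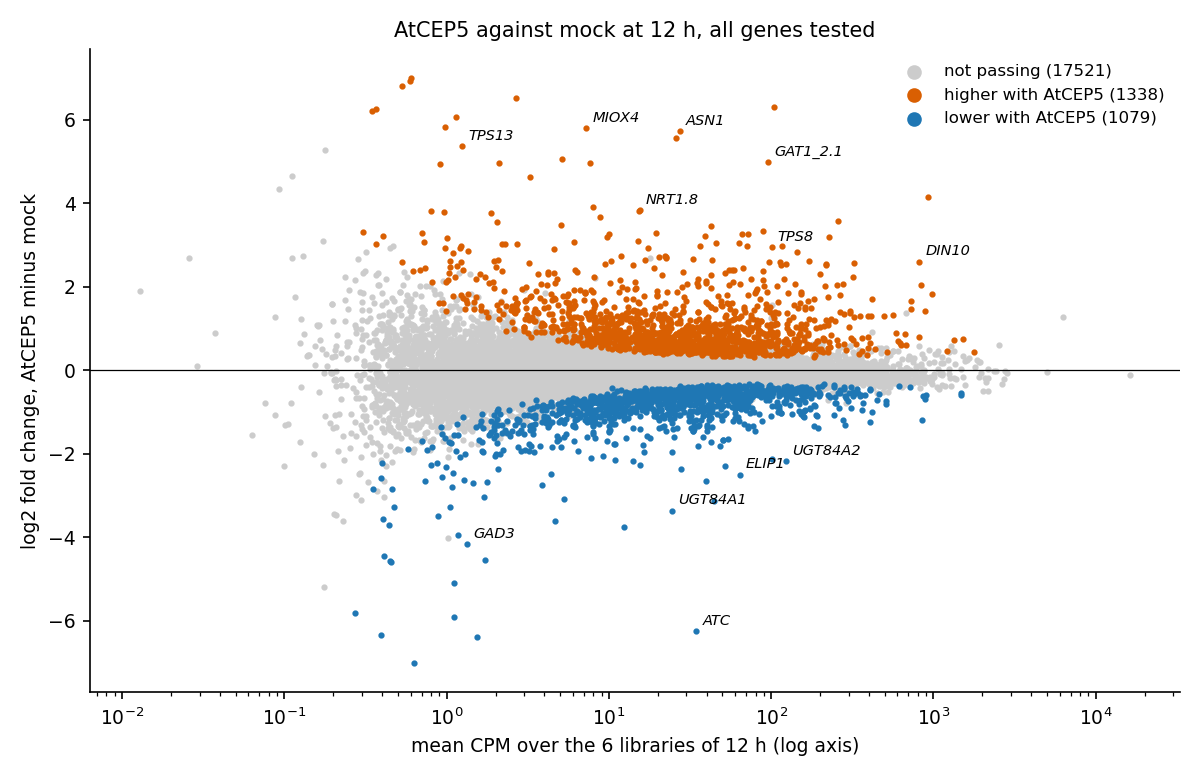
Log2 fold change of AtCEP5 against mock at 12 h (y axis) against the mean CPM of the 6 libraries (x axis, log scale), 1 point per gene tested. Orange points are the 1338 genes that rose, blue points the 1079 that fell and grey points those that did not pass. ATC lies lowest among the labelled genes and MIOX4 highest.

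Genes known from starved or darkened leaves rose together. Of 21 tested members of a list of carbon starvation and darkness markers 16 rose, with a median log2 fold change of 1.81 against −0.02 over all genes tested. The 5 others did not pass. When any 1 of the 6 libraries was left out, 14 or 15 rose. ASN1, the dark-inducible asparagine synthetase that stores nitrogen when carbon is short (AT3G47340, chromosome 3, 17437840–17441431), had 65.4, 54.7 and 41.2 CPM with AtCEP5 and 1.63, 1.11 and 0.35 CPM with mock. All 3 AtCEP5 libraries lay above every mock library, at a fold change of 5.72 ± 0.62 (adjusted p = 1.85e-06). GAT1_2.1, a glutamine amidotransferase-like gene (AT1G15040, chromosome 1, 5179887–5181402), had 248, 192 and 116 CPM with AtCEP5 and 3.49, 7.17 and 6.78 CPM with mock, again without overlap (4.99 ± 0.61, adjusted p = 9.20e-06). Outside that list, SEN1, a marker of senescence and darkness (AT4G35770, chromosome 4, 16944878–16946266), had 70.1, 54.9 and 28.1 CPM with AtCEP5 and 0.932, 0.739 and 1.54 CPM with mock (5.56 ± 0.65, adjusted p = 4.74e-06). AtCEP5 replicate 3 was the lowest of its group in these 3 genes and stayed far above mock.

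The transcription factor BZIP1, which acts in low-energy responses, had 218, 157 and 113 CPM with AtCEP5 and 15.2, 14.1 and 18.8 CPM with mock (3.34 ± 0.43, adjusted p = 1.29e-05). Its partner BZIP63 rose by 1.81 ± 0.23, and the related BZIP53 (0.16 ± 0.14) did not pass. Among the dark-inducible (DIN) genes, DIN10, of the raffinose synthase family, stood at 1259, 1489 and 1449 CPM with AtCEP5 and 221, 247 and 225 CPM with mock (2.6 ± 0.30, adjusted p = 4.74e-06). DIN11, a dioxygenase gene, had few reads with mock, 3.94, 2.31 and 4.22 CPM with AtCEP5 and 0, 0.517 and 0.21 CPM with mock (3.77 ± 0.77, adjusted p = 0.00174). DIN2, DIN3, DIN4 and DIN9 rose by 1.76 ± 0.52, 2.4 ± 0.24, 0.70 ± 0.16 and 0.99 ± 0.25. SWEET15, EXL1, CML38 and GBF5 had negative fold changes that did not pass.

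The 300 bases before the annotated start are shown for ASN1 and for the proline dehydrogenase gene ProDH, because both rose and both are textbook targets of group S bZIP factors, and for ATC, because it fell furthest among the named genes. The letters come from the RefSeq genome TAIR10.1, 5′ to 3′ on the gene's strand. Capitals mark matches on either strand to ACTCAT, the element described in the ProDH promoter, to CACGTG, the G-box, and to GAGAC, the core of a sulfur-response element.
ASN1, minus strand, chr3:17441432-17441731: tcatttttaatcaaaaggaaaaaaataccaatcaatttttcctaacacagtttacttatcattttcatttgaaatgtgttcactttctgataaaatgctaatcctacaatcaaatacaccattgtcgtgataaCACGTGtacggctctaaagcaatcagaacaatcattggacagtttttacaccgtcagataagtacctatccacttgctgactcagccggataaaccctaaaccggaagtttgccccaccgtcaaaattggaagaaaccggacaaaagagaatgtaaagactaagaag
ProDH, minus strand, chr3:12451557-12451856: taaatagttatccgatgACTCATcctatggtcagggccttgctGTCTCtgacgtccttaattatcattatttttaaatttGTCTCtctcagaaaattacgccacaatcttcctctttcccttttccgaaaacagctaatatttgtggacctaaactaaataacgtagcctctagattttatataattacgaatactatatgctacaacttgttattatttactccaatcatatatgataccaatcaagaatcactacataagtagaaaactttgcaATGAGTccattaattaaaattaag
ATC, plus strand, chr2:11772887-11773186: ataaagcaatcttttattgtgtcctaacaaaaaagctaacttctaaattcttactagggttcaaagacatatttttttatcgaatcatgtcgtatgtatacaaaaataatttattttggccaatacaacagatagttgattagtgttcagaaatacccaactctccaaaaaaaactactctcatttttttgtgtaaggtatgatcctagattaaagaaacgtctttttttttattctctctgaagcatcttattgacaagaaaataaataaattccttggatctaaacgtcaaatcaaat
The ASN1 window held 1 G-box, from 167 to 162 bases before the start, and overlaps an annotated gene, AT3G47341. The ProDH window held ACTCAT on the gene's strand 283 to 278 bases before the start and on the other strand 24 to 19 bases before it, and 2 matches to GAGAC on the other strand. The ATC window held none of the 3 words. Of 19892 windows of tested genes, 14.3% held ACTCAT, 7.92% CACGTG and 29.5% GAGAC. The shares were 15.4%, 9.16% and 28.8% among genes that rose and 13.8%, 9.18% and 27.5% among genes that fell. In the starvation list 2 of 21 windows held ACTCAT and 2 held CACGTG. A match is a run of letters and not a shown binding site.

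Enzymes that break down branched-chain amino acids rose with the starvation genes. Of 12 tested genes 8 rose, with a median of 0.65, and 7 or 8 rose without any 1 library. BCAT-2, a branched-chain aminotransferase (AT1G10070, chromosome 1, 3288087–3290471), had 21, 17.5 and 10.3 CPM with AtCEP5 and 1.4, 1.48 and 0.979 CPM with mock (3.66 ± 0.42, adjusted p = 4.70e-06). The groups did not overlap. BCE2, the transacylase of the branched-chain oxo acid dehydrogenase, also listed as DIN3, rose by 2.4 ± 0.24. BCAT-2 and DIN3 also belong to the starvation list, so the lists do not count separate genes. IVD, isovaleryl-CoA dehydrogenase, had 152, 129 and 108 CPM with AtCEP5 and 40, 39.6 and 40.6 CPM with mock (1.7 ± 0.18, adjusted p = 1.36e-06). MCCA, the biotin subunit of methylcrotonyl-CoA carboxylase, rose by 1.8 ± 0.20, and its partner subunit MCCB by 0.60 ± 0.15. ETFQO, which passes electrons from these steps to the respiratory chain, rose by 0.72 ± 0.17, ALDH6B2 rose by 0.53 ± 0.11, while BCAT-1, CHY1, ETFBETA and D2HGDH did not pass.

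ProDH, which starts the oxidation of proline, stood at 1059, 1202 and 1049 CPM with AtCEP5 and 327, 385 and 330 CPM with mock (1.67 ± 0.19, adjusted p = 2.71e-06). Before treatment it had 208–319 CPM, below both groups. Glutamate dehydrogenase genes GDH1 and GDH2 rose by 1.26 ± 0.17 and 1.42 ± 0.18. Of the 29 tested genes of asparagine, glutamine and glutamate metabolism 5 rose and 3 fell, with a median of −0.08. The shares over all genes tested were 6.71% and 5.41%. GAD3, a glutamate decarboxylase (AT2G02000, chromosome 2, 469370–472070), fell, with 0.232, 0.145 and 0 CPM with AtCEP5 and 2.25, 3.03 and 2.38 CPM with mock (−4.16 ± 0.68, adjusted p = 2.16e-04). Its neighbour GAD4 had 0 reads with AtCEP5 and 22 with mock, at least 2.36-fold lower when 3 reads per library are taken as the floor. GAD3 and GAD4 lie side by side and may share reads. The cytosolic and plastid glutamine synthetases and ASN2 did not pass.

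Autophagy genes had mostly positive fold changes. Of 13 tested genes 4 rose, against 6.71% of all genes tested, with a median of 0.45. Of their fold changes 12 were positive, against 47.5% of all genes tested. The ubiquitin-like autophagosome proteins led: ATG8E had 305, 229 and 182 CPM with AtCEP5 and 124, 75.9 and 107 CPM with mock (1.22 ± 0.32, adjusted p = 0.0133), ATG8F rose by 0.90 ± 0.21 and ATG8B by 0.75 ± 0.19. These calls rested on single libraries, since no member of the list passed without AtCEP5 replicate 1 and 2 passed without mock replicate 1 or 2. The adjusted p of ATG8E ran from 3.49e-05 to 0.091 over the alternatives. AtCEP5 replicate 1 was the highest library for ATG8B, ATG8E and ATG8F.

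**Figure D2:**
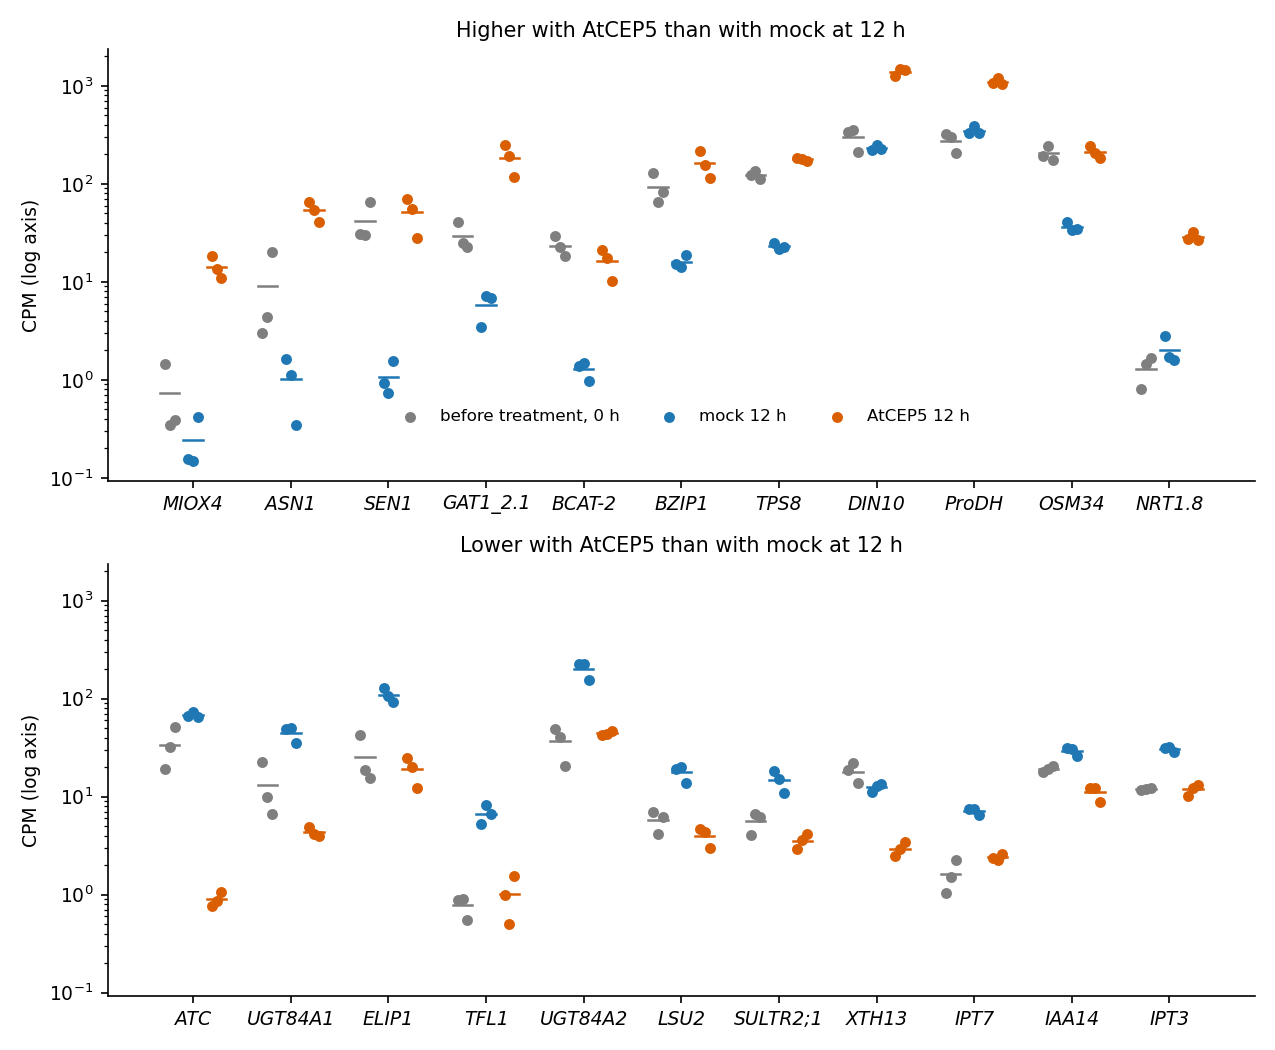
CPM per library (log axis) of genes that rose (top) and fell (bottom) with AtCEP5 against mock at 12 h. Grey points are the libraries taken before treatment, blue points mock at 12 h and orange points AtCEP5 at 12 h, with short lines at group means. In every gene drawn the orange points lie on 1 side of all blue points. The mock points lie below the grey ones for SEN1, BCAT-2 and TPS8, and above them for UGT84A2, TFL1 and IPT3.

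Sugar transport and sugar signalling genes moved in both directions. Of 19 tested SWEET, STP and SUC genes 9 rose and 2 fell, with a median of 0.59. SUC2, the phloem-loading sucrose carrier, rose by 1.47 ± 0.29, and the hexose carriers STP1 and STP4 rose by 1.1 ± 0.18 and 0.81 ± 0.14. STP1 had 121, 141 and 145 CPM with AtCEP5 and 66.6, 65.4 and 58.6 CPM with mock (adjusted p = 2.51e-04). The exporter SWEET12 rose by 2.64 ± 0.63, with 2.59–5.48 CPM with AtCEP5 and 0.14–0.961 CPM with mock against 55.5–116 CPM before treatment, while SWEET14 and SWEET13 fell by 3.03 ± 0.58 and 1.92 ± 0.44. SWEET14 had 0.154, 0.145 and 0.863 CPM with AtCEP5 and 1.86, 3.62 and 3.5 CPM with mock (adjusted p = 0.00106). Among carriers of the vacuole membrane SWEET16, SWEET2 and ERDL6 rose by 1.06 ± 0.22, 0.95 ± 0.20 and 0.59 ± 0.12, while SWEET17 (0.08 ± 0.17) and SUC4 (0.16 ± 0.17) did not pass.

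In the trehalose phosphate synthase family TPS6, TPS8, TPS9 and TPS11 rose and TPS5 fell by 0.56 ± 0.17, all of the class without shown synthase activity. TPS8 had 185, 179 and 169.6 CPM with AtCEP5 and 25.2, 21.6 and 22.5 CPM with mock (2.95 ± 0.36, adjusted p = 8.74e-06), TPS11 111, 117 and 113 CPM with AtCEP5 and 21.7, 21.2 and 20 CPM with mock (2.44 ± 0.35, adjusted p = 4.91e-05), and TPS9 rose by 1.71 ± 0.21. TPS1, the enzyme that makes trehalose 6-phosphate, stood at −0.21 ± 0.19 and did not pass. Among the phosphatases TPPJ rose by 0.90 ± 0.23 and TPPI and TPPA fell by 1.76 ± 0.40 and 0.79 ± 0.19. In all, 5 of 17 rose and 3 fell, where 6.71% of all genes rose and 5.41% fell, and only 1 fell without mock replicate 3. TPS8, TPS9 and TPS11 also belong to the starvation list. Of 12 genes that cleave sucrose 1 rose, the cytosolic invertase CINV1 (0.66 ± 0.13), and 2 fell. These were the vacuolar invertase FRUCT4 (−0.86 ± 0.14) and the sucrose synthase SUS4 (−0.86 ± 0.23). SUS4 had an adjusted p of 0.0162, and of up to 0.11 without mock replicate 1 or 3 or AtCEP5 replicate 1 or 2.

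MIOX4, a myo-inositol oxygenase that opens a route from inositol to wall sugars (AT4G26260, chromosome 4, 13297695–13300444), showed the largest rise among genes with a symbol, a mean of at least 1 CPM and no overlap between the groups. It had 18.3, 13.5 and 10.8 CPM with AtCEP5 and 0.155, 0.148 and 0.42 CPM with mock (5.8 ± 0.53, adjusted p = 2.41e-07), 536 reads against 10. MIOX2 stood at 352, 343 and 341 CPM with AtCEP5 and 68.3, 107 and 81 CPM with mock (2.02 ± 0.24, adjusted p = 6.95e-06). Neither gene overlapped between the groups. Galactinol synthase GolS3 and inositol phosphate synthase MIPS3 fell by 2.37 ± 0.37 and 1.02 ± 0.17. Of 16 genes of the myo-inositol and raffinose list 4 rose and 2 fell, with a median of 0.01.

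Of 14 tested nitrate transport genes 5 rose, against 6.71% of all genes tested, with a median of 0.14. NRT1.8, which takes nitrate back out of the xylem (AT4G21680, chromosome 4, 11517353–11519805), had 27.4, 32.2 and 27 CPM with AtCEP5 and 2.8, 1.7 and 1.61 CPM with mock (3.83 ± 0.27, adjusted p = 6.10e-09). NRT2.6, of the high-affinity family, had 1.78, 2.1 and 1.54 CPM with AtCEP5 and 0.233, 0 and 0.14 CPM with mock (3.78 ± 0.81, adjusted p = 0.00277), a rise from few reads. NRT1.5, which loads nitrate into the xylem, rose by 0.86 ± 0.20, NRT1:2 by 0.60 ± 0.14 and SLAH3 by 0.67 ± 0.20. The main uptake genes NRT2.1 (−0.16 ± 0.33), NRT1.1 (−0.38 ± 0.26) and NRT2.4 (−0.57 ± 0.54) did not pass.

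Of 20 assimilation and response genes 3 rose and 6 fell, where 6.71% of all genes rose and 5.41% fell, with a median of −0.07. The BTB-TAZ scaffold genes BT1 and BT2, which damp nitrate uptake and also belong to starvation responses, rose. BT1 had 265, 264 and 233 CPM with AtCEP5 and 26.3, 36.1 and 44.4 CPM with mock (2.83 ± 0.39, adjusted p = 2.84e-05) and BT2 622, 574 and 463 CPM with AtCEP5 and 79, 81.9 and 120 CPM with mock (2.56 ± 0.39, adjusted p = 1.02e-04). Nitrate reductase NIA1 had 9.65, 15 and 39.9 CPM with AtCEP5 and 45.1, 65.6 and 114 CPM with mock (−1.82 ± 0.46, adjusted p = 0.00975), with replicate 3 highest in both groups. Nitrite reductase NIR1 fell by 0.79 ± 0.22. The falls were not stable: 0 of the 20 genes fell without mock replicate 3, AtCEP5 replicate 1 or AtCEP5 replicate 2, 2 without mock replicate 1, 1 without mock replicate 2 and 8 without AtCEP5 replicate 3. The adjusted p of NIA1 reached 0.0842 over the fits without those first 3 libraries. The 3 ammonium transporters tested, AMT1;2 (−0.39 ± 0.21), AMT1;3 (−0.54 ± 0.21) and AMT2 (−0.20 ± 0.18), did not pass.

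A few defence and hormone-response genes rose strongly. Of 24 tested defence genes 7 rose, with a median of −0.09. OSM34, an osmotin-like protein (AT4G11650, chromosome 4, 7024852–7026224), had 245, 205 and 185 CPM with AtCEP5 and 40.5, 33.6 and 34.4 CPM with mock (2.55 ± 0.18, adjusted p = 6.10e-09). The chitinase PR3 had 149, 123 and 103 CPM with AtCEP5 and 35.8, 37.8 and 31.2 CPM with mock (1.84 ± 0.21, adjusted p = 3.58e-06), and PR4 rose by 1.82 ± 0.26. The regulators WRKY70, WRKY40 and WRKY18 rose by 2.34 ± 0.34, 1.69 ± 0.49 and 0.90 ± 0.23. The salicylic acid genes SID2, PAD4 and EDS1 did not pass.

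In the ethylene list 3 of 21 genes rose, where 6.71% of all genes rose and 5.41% fell. ORA59, an ethylene and jasmonate response factor, had 59, 47.5 and 37.2 CPM with AtCEP5 and 8.85, 10.1 and 9.3 CPM with mock (2.35 ± 0.23, adjusted p = 7.08e-07), and the ethylene-forming oxidase ACO4 rose by 1.04 ± 0.16. Receptor and core signalling genes such as ETR1, CTR1 and EIN2 did not pass. Of 27 jasmonate genes 2 rose and 3 fell. JAZ1, a repressor, fell by 0.95 ± 0.14 and the hormone-degrading CYP94B3 rose by 1.17 ± 0.21. The count of falls was 2 without mock replicate 3 and 1 without any other library of 12 h, and 1 rose without mock replicate 1 or 3 or AtCEP5 replicate 1. Of 35 abscisic acid genes 4 rose and 5 fell, and 2 fell without AtCEP5 replicate 1 or 2 and 3 without any other library of 12 h. RD29B, a drought marker, had 0.695, 1.74 and 1.44 CPM with AtCEP5 and 0.0777, 0.222 and 0.0699 CPM with mock (3.29 ± 0.64, adjusted p = 0.0011), and its level before treatment was 6.76–8.11 CPM. ABF3 fell by 0.64 ± 0.14 and ABF4, a related factor, rose by 0.69 ± 0.14.

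ATC (AT2G27550, chromosome 2, 11773187–11774746), which is related to TFL1, a repressor of flowering, fell further than any other gene named here. It had 0.772, 0.867 and 1.06 CPM with AtCEP5 and 67.1, 72.5 and 64.9 CPM with mock (−6.25 ± 0.33, adjusted p = 1.09e-10). The AtCEP5 libraries also lay below the 19.2–50.9 CPM before treatment, and the mock libraries above it. TFL1 itself had 1.0, 0.506 and 1.54 CPM with AtCEP5 and 5.2, 8.2 and 6.71 CPM with mock (−2.76 ± 0.36, adjusted p = 1.75e-05), and there AtCEP5 overlapped the 0.551–0.895 CPM before treatment. The other 3 tested members of the list, MFT, FD and FDP, did not pass.

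Of 24 tested genes of sulfate uptake and reduction 11 fell, with a median of −0.71. Negative fold changes were found in 22, against 52.5% of all genes tested. SULTR2;1, a sulfate carrier of the vasculature, had 2.93, 3.61 and 4.13 CPM with AtCEP5 and 18.4, 15.2 and 10.9 CPM with mock (−2.06 ± 0.31, adjusted p = 6.89e-05). APR1 and APR2, which reduce activated sulfate, fell by 1.35 ± 0.19 and 1.21 ± 0.22, and APR1 had 37.4, 41.9 and 51.6 CPM with AtCEP5 and 98.6, 128 and 106 CPM with mock (adjusted p = 3.22e-05). The sulfur deficiency gene LSU2 had 4.63, 4.34 and 2.97 CPM with AtCEP5 and 19.3, 20.3 and 13.9 CPM with mock (−2.15 ± 0.29, adjusted p = 2.27e-05). In these genes AtCEP5 overlapped the level before treatment, 4.02–6.68 CPM for SULTR2;1, 46.8–58.2 CPM for APR1 and 4.2–6.92 CPM for LSU2, and mock lay above it.

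The sulfate carriers SULTR1;1, SULTR1;2 and SULTR1;3 fell by 1.02 ± 0.33, 0.66 ± 0.19 and 3.49 ± 0.62. The regulator SLIM1 stood at −0.01 ± 0.17. Without mock replicate 1 or mock replicate 3 the count was 6, and without mock replicate 2 or AtCEP5 replicate 1 or 2 it was 7. GAGAC was present in 4 of the 24 windows (16.7%), against 29.5% of all windows. Indole glucosinolate synthesis, which draws on reduced sulfur, fell in 8 of 16 genes and rose in 2. SUR1, the C-S lyase, had 68.9, 67 and 78.6 CPM with AtCEP5 and 130.2, 145 and 116 CPM with mock (−0.87 ± 0.12, adjusted p = 3.22e-05). UGT74B1 and SOT16, which complete the core structure, fell by 0.87 ± 0.15 and 0.76 ± 0.12. MYB34, an activator, fell by 1.03 ± 0.19, and MYB51, another activator, rose by 0.99 ± 0.29. Without mock replicate 2, 5 genes fell. The 2 rises were 0 without mock replicate 3 or AtCEP5 replicate 2 and 1 without mock replicate 1 or 2 or AtCEP5 replicate 1.

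**Figure D3:**
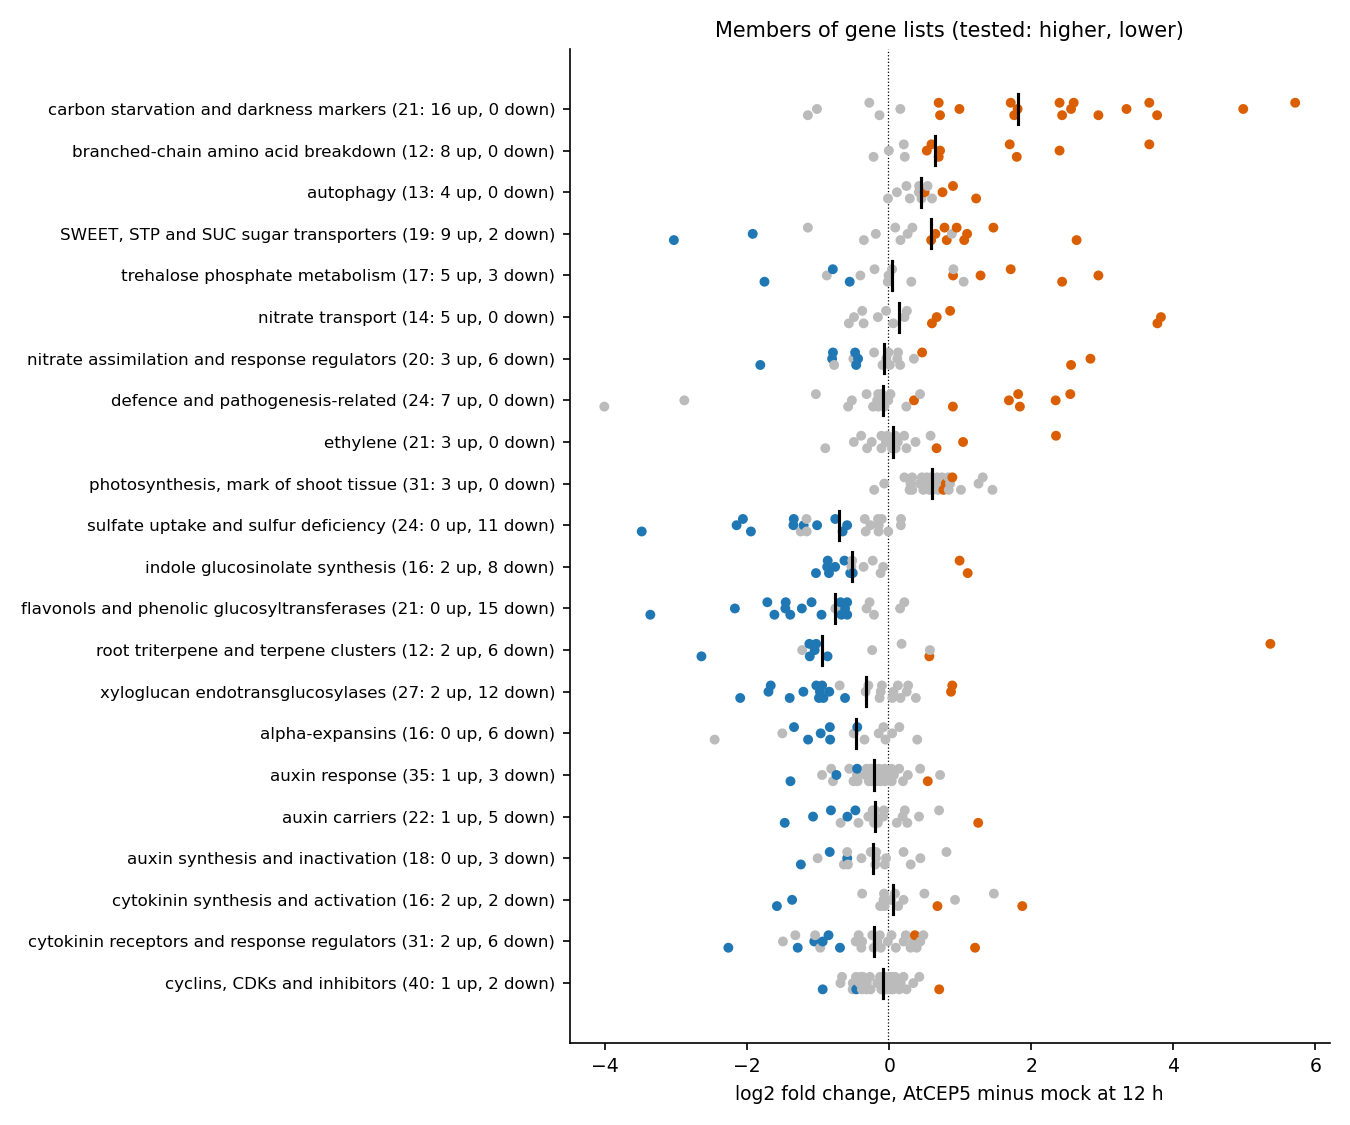
Log2 fold change of AtCEP5 against mock at 12 h for the tested members of 22 gene lists, 1 point per gene. Orange points rose, blue points fell, grey points did not pass, black bars are list medians and the dotted line is the median of all genes tested (−0.02). The starvation list stands furthest right with a median of 1.81, and the flavonol list has 15 blue points of 21.

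Flavonol synthesis and glucosylation of phenolics fell in 15 of 21 tested genes, with a median of −0.76. UGT84A1 and UGT84A2, which attach glucose to hydroxycinnamic acids, led. UGT84A2 (AT3G21560, chromosome 3, 7595680–7597607) had 42.9, 44 and 47.3 CPM with AtCEP5 and 224, 227 and 154 CPM with mock (−2.17 ± 0.26, adjusted p = 5.58e-06). UGT84A1 had 4.86, 4.19 and 3.93 CPM with AtCEP5 and 49.1, 49.9 and 35.5 CPM with mock (−3.37 ± 0.33, adjusted p = 7.02e-07). The flavonol regulator MYB12 fell by 1.46 ± 0.30. Flavonol synthase FLS1 had 206, 258 and 267 CPM with AtCEP5 and 524, 623 and 569 CPM with mock (−1.23 ± 0.17, adjusted p = 3.50e-05), and chalcone synthase TT4 fell by 0.59 ± 0.18. Outside the list, the flavonoid transporter DTX35, which overlaps another gene on its strand, fell by 1.18 ± 0.19. PAL1 and PAL2, at the entry to the pathway, fell by 0.59 ± 0.12 and 0.62 ± 0.16, and C4H and PAL4 did not pass. Between 11 and 15 genes fell without any 1 library.

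Of 32 tested light-response genes 3 rose and 7 fell, where 6.71% of all genes rose and 5.41% fell, with a median of −0.29. ELIP1 and ELIP2, early light-induced proteins, had 25, 20.1 and 12.3 CPM with AtCEP5 and 128, 106 and 93.1 CPM with mock for ELIP1 (−2.5 ± 0.33, adjusted p = 1.76e-05), and ELIP2 fell by 2.37 ± 0.32. The pair is similar in sequence and may share reads. PIL1, a light-regulated bHLH gene, fell by 2.64 ± 0.50, and HFR1, another, rose by 1.34 ± 0.21. HY5, COP1 and PHYB did not pass. BBX30, a B-box gene, fell by 2.7 ± 0.86 (adjusted p = 0.0414). Its call was lost with limma, without mock replicate 1 and without any 1 AtCEP5 library (adjusted p up to 0.405).

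Of the 31 photosynthesis genes that mark shoot tissue 3 rose, with a median of 0.61. Positive fold changes were found in 29, against 47.5% of all genes tested. In 17 of the 31 genes all AtCEP5 libraries lay above all mock libraries, against 15.2% of all genes tested. PSBO2, of the oxygen-evolving complex, had 41.4, 36.1 and 29.4 CPM with AtCEP5 and 23.5, 19.1 and 19.1 CPM with mock (0.80 ± 0.24, adjusted p = 0.0327). The 3 calls were lost without mock replicate 2 or 3 or AtCEP5 replicate 1 or 2, 5 genes rose without AtCEP5 replicate 3, and 14 of 27 tested rose when the 6 libraries were fitted alone. In the circadian clock list 3 of 19 rose and 2 fell, where 6.71% of all genes rose and 5.41% fell. Of the rises 1 was left without mock replicate 2 or 3 or AtCEP5 replicate 1 or 2. Of the falls 1 was left without mock replicate 1 or 2 or AtCEP5 replicate 1. GI, an evening gene, had 14.5, 15.6 and 17 CPM with AtCEP5 and 58.2, 53.9 and 52.8 CPM with mock (−1.81 ± 0.21, adjusted p = 4.53e-06), while the morning genes CCA1 (0.77 ± 0.33) and LHY (0.81 ± 0.36) did not pass.

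Root triterpene and terpene genes fell in 6 of 12 cases and rose in 2, with a median of −0.95. Thalianol synthase THAS and the thalianol-modifying THAH and THAD fell by 1.13 ± 0.22, 1.03 ± 0.19 and 1.05 ± 0.18. THAS had 90.1, 92.2 and 118 CPM with AtCEP5 and 189, 247 and 218 CPM with mock (adjusted p = 0.00104). These genes lie next to each other on chromosome 5. The terpene synthase TPS13 went the other way, from 2 reads over the mock libraries to 89 over the AtCEP5 libraries. Scaled for depth, that is a ratio of 48.7 (95% counting interval 13.1–408, for counting error only). Its neighbour TPS12 (0.57 ± 0.37) did not pass.

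Of 27 tested xyloglucan endotransglucosylase (XTH) genes, whose products remodel the primary wall, 12 fell and 2 rose, with a median of −0.33, and 9 to 12 fell without any 1 library. XTH13 had 2.47, 2.89 and 3.45 CPM with AtCEP5 and 11.1, 12.9 and 13.6 CPM with mock (−2.1 ± 0.26, adjusted p = 8.74e-06), below the 13.8–21.8 CPM before treatment, as mock did. XTH19 had 23.9, 21.9 and 26.9 CPM with AtCEP5 and 70.8, 70.6 and 89.2 CPM with mock (−1.67 ± 0.19, adjusted p = 2.96e-06). Of 16 alpha-expansins, which disrupt contacts between wall polymers, 6 fell, with a median of −0.48. EXPA15 had 66, 113 and 132 CPM with AtCEP5 and 298, 259 and 230.3 CPM with mock (−1.34 ± 0.21, adjusted p = 1.29e-04). In EXPA15 the mock libraries were several times above the 35.5–49.7 CPM before treatment and the AtCEP5 libraries lay between.

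Of 23 root hair genes 17 had negative fold changes, against 52.5% of all genes tested. Of the 23 genes 2 fell and 1 rose, a rise not called without mock replicate 3 or AtCEP5 replicate 1. The summed markers of root hair cells were 168–229.9 CPM with AtCEP5 and 246–264 CPM with mock. EXPA18, expressed in root hairs, had 31.7, 32.5 and 37.4 CPM with AtCEP5 and 62, 62.1 and 57.1 CPM with mock (−0.84 ± 0.20, adjusted p = 0.00649). Without AtCEP5 replicate 3, 6 genes fell, and without any other single library 1 fell. Phloem markers summed to 66.2–85.2 CPM with AtCEP5 and 43.1–59.6 CPM with mock. Of the 4, SUC2 had 30–45.6 CPM with AtCEP5 and 11.4–17.1 CPM with mock, and APL, SEOR1 and CALS7 overlapped between the groups. Of 25 Casparian strip and suberin genes 2 rose and 2 fell, where 6.71% of all genes rose and 5.41% fell. The membrane scaffold gene CASP5 rose by 1.3 ± 0.27, while CASP1 (−0.04 ± 0.18), CASP2 (−0.01 ± 0.16) and CASP4 (−0.10 ± 0.18) did not pass. Neither fall was called without mock replicate 1 or 2 or AtCEP5 replicate 1 or 2, and 1 was called without AtCEP5 replicate 3. Without mock replicate 3 the list held 3 falls. MYB36, which switches on that programme, had 23.5, 21.2 and 21.6 CPM with AtCEP5 and 8.62, 15.7 and 15 CPM with mock (0.75 ± 0.20, adjusted p = 0.0141), and its adjusted p reached 0.0861 without mock replicate 1 or AtCEP5 replicate 1.

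Among 35 auxin response genes 1 rose, 3 fell and 26 had negative fold changes, with a median of −0.21 against −0.02 for all genes. Of all genes tested 52.5% had negative fold changes, 6.71% rose and 5.41% fell. IAA14, a repressor of the Aux/IAA family that blocks lateral root initiation (AT4G14550, chromosome 4, 8347822–8350263), had 12.1, 12.4 and 8.92 CPM with AtCEP5 and 31.3, 30.4 and 26.3 CPM with mock (−1.39 ± 0.18, adjusted p = 1.34e-05). The AtCEP5 libraries lay below the 17.9–20.6 CPM before treatment and mock lay above it. IAA19, often used as an auxin readout, had 5.41, 4.27 and 3.55 CPM with AtCEP5 and 8.0, 6.72 and 7.55 CPM with mock (−0.74 ± 0.19, adjusted p = 0.0105), and up to 0.0626 without mock replicate 1 or AtCEP5 replicate 2 or 3. IAA2 rose by 0.54 ± 0.14 (adjusted p = 0.00987), a call lost without mock replicate 1 or AtCEP5 replicate 1 (up to 0.103). IAA17 fell by 0.45 ± 0.14. The list held 1 fall without mock replicate 1 or AtCEP5 replicate 2 or 3, and 2 without any other library of 12 h. The response factors ARF7, ARF19 and ARF5 and the lateral root genes LBD16, LBD18 and LBD29 did not pass.

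Among 22 auxin carrier genes 5 fell and 1 rose, where 5.41% of all genes fell and 6.71% rose. PIN4, an efflux carrier of the root tip, had 16.8, 18.5 and 16.6 CPM with AtCEP5 and 41.6, 33.9 and 33.8 CPM with mock (−1.07 ± 0.15, adjusted p = 4.07e-05). The influx carriers LAX2, AUX1 and LAX3 fell by 0.82 ± 0.14, 0.59 ± 0.14 and 0.48 ± 0.13. The kinase gene WAG1, whose product acts on PIN proteins, fell by 1.47 ± 0.37, and the transporter ABCB21 rose by 1.25 ± 0.28. PIN2 (−0.07 ± 0.19), PIN3 (−0.16 ± 0.17) and PIN7 (0.11 ± 0.13) did not pass. Leaving out AtCEP5 replicate 1 left 2 falls, and leaving out mock replicate 1 left 3. Of 18 genes of auxin synthesis and inactivation 3 fell, the flavin monooxygenases YUC9 (−1.25 ± 0.29), YUC6 (−0.59 ± 0.11) and YUC3 (−0.84 ± 0.25). YUC6 had 23.8, 23.1 and 24.1 CPM with AtCEP5 and 35.6, 37.2 and 34.2 CPM with mock (adjusted p = 6.29e-04). The adjusted p of YUC3 reached 0.129 when single libraries were left out, and TAA1 (−0.59 ± 0.21) did not pass.

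Cytokinin genes were called in both directions. Of 16 genes of synthesis and activation 2 rose and 2 fell, where 6.71% of all genes rose and 5.41% fell. The isopentenyltransferases IPT3 and IPT7, which make the hormone, fell. IPT3, a nitrate-responsive member, had 10.3, 12.2 and 13.1 CPM with AtCEP5 and 31.4, 31.9 and 28.7 CPM with mock (−1.37 ± 0.16, adjusted p = 4.30e-06), and IPT7 had 2.39, 2.24 and 2.59 CPM with AtCEP5 and 7.53, 7.54 and 6.57 CPM with mock (−1.58 ± 0.26, adjusted p = 1.75e-04). In both the AtCEP5 libraries overlapped the level before treatment, 11.8–12.1 CPM for IPT3 and 1.05–2.28 CPM for IPT7. LOG1, which frees the active base, rose, with 19.9, 19.1 and 15.3 CPM with AtCEP5 and 6.37, 4.14 and 4.34 CPM with mock (1.87 ± 0.25, adjusted p = 1.68e-05). LOG3, LOG4, LOG5, LOG7, LOG8 and LOG9 did not pass.

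Of 9 genes of breakdown and glucosylation 2 rose and 1 fell. The glucosyltransferases UGT85A1 and UGT76C2 rose by 1.05 ± 0.17 and 0.64 ± 0.14. The oxidase CKX7 fell by 0.84 ± 0.27 (adjusted p = 0.0407), a call lost without mock replicate 1 or 3 or AtCEP5 replicate 1 or 3 (up to 0.243), with the 6 libraries fitted alone, or with every gene of at least 1 read kept. Of 31 receptors and response regulators 2 rose and 6 fell, where 6.71% of all genes rose and 5.41% fell, with a median of −0.22. ARR15, a negative regulator of the response, fell by 2.27 ± 0.54, and the activator ARR10 by 0.69 ± 0.14. The activators ARR11 and ARR1 rose by 1.21 ± 0.21 and 0.36 ± 0.10, and 1 rise was called without mock replicate 3 or AtCEP5 replicate 1. ARR5, the usual primary-response readout, had 42.1, 43.4 and 42.7 CPM with AtCEP5 and 53.7, 42.9 and 54.5 CPM with mock (−0.24 ± 0.20, adjusted p = 0.511), which did not pass. LBD3, a cytokinin-induced vascular gene, fell by 1.29 ± 0.23, and the cytokinin-responsive cyclin CYCD3;1 by 0.94 ± 0.18.

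The receptors of CEPs did not pass. CEPR1 (AT5G49660, chromosome 5, 20161140–20164729) had 21.9, 19.3 and 24.9 CPM with AtCEP5 and 20, 17.1 and 21.1 CPM with mock (0.18 ± 0.21, adjusted p = 0.646). CEPR2 (AT1G72180, chromosome 1, 27162820–27167430) had 16, 22 and 37 CPM with AtCEP5 and 30.1, 34 and 25.5 CPM with mock (−0.26 ± 0.23, adjusted p = 0.519). AtCEP5 replicate 3 was above all mock libraries for CEPR2 and replicates 1 and 2 were below them. Without replicate 3 the fold change was −0.62 with an adjusted p of 0.0481. The names CEP5, CEPD1 and CEPD2 matched no symbol in the RefSeq annotation, so no locus is given those names here. Of the 2 CC-type glutaredoxins tested, ROXY2 rose by 1.85 ± 0.35 and ROXY19 (−0.36 ± 0.26) did not pass. For this family 25 of 29 symbols matched no gene.

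AT5G66815, AT3G50610 and AT5G66816, loci to which the annotation gives no symbol and which were chosen after their values were seen, fell. AT5G66815 (chromosome 5, 26677365–26678002), annotated by RefSeq as an uncharacterized protein, had 1.08, 0.289 and 0.767 CPM with AtCEP5 and 9.55, 7.46 and 8.88 CPM with mock (−3.6 ± 0.36, adjusted p = 7.55e-07), which is 351 reads over the mock libraries and 26 over the AtCEP5 libraries. AT3G50610 had 87 reads over the mock libraries and 2 over the AtCEP5 libraries (depth-scaled ratio 39.8, 95% counting interval 10.7–334). AT5G66816, annotated like AT3G50610 as an RNA polymerase II subunit RPB1-like protein and close to AT5G66815 on chromosome 5, had 1 read against 35 (ratio 32.0, interval 5.38–1299). Before treatment AT5G66815 had 3.54–4.72 CPM, so AtCEP5 lay below and mock above that level.

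A symbol was given for 624 of the genes that rose and 605 of those that fell. Among loci without one and with a mean of at least 20 CPM, AT4G33720, of the CAP family of secreted pathogenesis-related proteins, rose most, with 208, 202 and 207 CPM with AtCEP5 and 1.86, 4.36 and 1.61 CPM with mock (6.3 ± 0.39, adjusted p = 9.29e-10). AT3G15450, annotated as an aluminum-induced protein, had 1958, 1868 and 1427 CPM with AtCEP5 and 87.4, 97.8 and 112 CPM with mock (4.15 ± 0.59). AT2G33830, a dormancy-associated family protein, had 659.6, 480.1 and 297 CPM with AtCEP5 and 48.3, 45 and 27.5 CPM with mock (3.57 ± 0.44), below the 967–1985 CPM before treatment in both groups. DYL1, whose name is dormancy-associated protein-like, rose by 2.55 ± 0.35. AT4G01390, of the TRAF-like family, fell most, with 6.56, 9.76 and 11 CPM with AtCEP5 and 89.7, 73.2 and 75.9 CPM with mock (−3.13 ± 0.26, adjusted p = 5.60e-08). These loci were taken by the size of their change after the values were seen.

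Abundant genes that fell include methylation and membrane lipid enzymes. SAHH2, which clears the by-product of methylation reactions, had 456, 561 and 533 CPM with AtCEP5 and 1187, 1095 and 1284 CPM with mock (−1.2 ± 0.14, adjusted p = 6.49e-06). XPL1, which makes the phosphocholine of membrane lipids, had 52.4, 111 and 162 CPM with AtCEP5 and 274, 255 and 312 CPM with mock (−1.37 ± 0.29, adjusted p = 0.00224). In both genes mock lay well above the level before treatment, 216–294 CPM and 61.4–111 CPM. GDPD2, a phosphodiesterase of lipid head groups, rose, with 381, 372 and 246 CPM with AtCEP5 and 62.3, 67.2 and 73 CPM with mock (2.3 ± 0.23, adjusted p = 6.53e-07).

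Genes of division and of the root meristem were counted beside all genes tested, of which 6.71% rose and 5.41% fell. Of 40 cyclin, CDK and inhibitor genes 1 rose, CYCD1;1 (0.70 ± 0.14), and 2 fell, CYCD3;1 and CYCA1;1 (−0.46 ± 0.15). The call on CYCA1;1 (adjusted p = 0.046) was lost in 10 of 14 alternatives, among them every fit without 1 library. Of 17 replication licensing genes 16 had negative fold changes, against 52.5% of all genes tested, and 1 fell, ORC1A (−1.37 ± 0.40). That call was lost without mock replicate 1 or 2 or AtCEP5 replicate 1 or 2 (up to 0.146). Of 12 nucleolar genes 1 fell, FIB2 (−0.62 ± 0.16), and its adjusted p reached 0.0855 without mock replicate 1 or 3 or AtCEP5 replicate 1. Of 18 stem cell niche genes 2 rose and 1 fell. The receptor gene CLV1 had 18.5, 22.2 and 24.1 CPM with AtCEP5 and 45, 35.2 and 34.1 CPM with mock (−0.82 ± 0.19, adjusted p = 0.00517). Of the rises, UPB1 and JKD, neither was called without mock replicate 1 and 1 was called without any other library of 12 h. PLT1 (−0.25 ± 0.22), PLT2 (−0.32 ± 0.28), SHR (0.01 ± 0.16), SCR (−0.30 ± 0.19) and WOX5 (0.54 ± 0.24) did not pass. Of 20 vascular patterning genes 1 fell, LBD3.

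Of 26 iron acquisition genes 2 rose and 2 fell, with a median of −0.00166. Of all genes tested 6.71% rose and 5.41% fell. BHLH101 had 12.5, 11.3 and 7.67 CPM with AtCEP5 and 2.41, 2.44 and 3.43 CPM with mock (1.93 ± 0.35, adjusted p = 5.69e-04), whereas the uptake genes IRT1 (0.28 ± 0.35) and FRO2 (0.31 ± 0.27) did not pass. Of the falls 1 was left without mock replicate 3 or AtCEP5 replicate 3 and none without any other library of 12 h. Of 22 phosphate starvation genes 1 rose, SPX4 (0.87 ± 0.22), a call lost without AtCEP5 replicate 1 (0.0657). Of 29 aquaporins 3 rose and 5 fell, and 8 rose when the 6 libraries were fitted alone and 6 in DESeq2. In 14 aquaporins all AtCEP5 libraries lay above all mock libraries and in 9 all lay below, against 15.2% and 16.5% of all genes tested. The tonoplast channel TIP2;3 had 159.9, 151 and 126 CPM with AtCEP5 and 70.8, 59.8 and 43.6 CPM with mock (1.33 ± 0.21, adjusted p = 1.20e-04) and the plasma membrane channel PIP1C rose by 0.89 ± 0.18. The falls among aquaporins were 2 without mock replicate 3 or AtCEP5 replicate 1, and 3 without mock replicate 2 or AtCEP5 replicate 2 or 3. Among 11 peroxidases tested 1 rose, PRX37, which had 237, 249.8 and 267 CPM with AtCEP5 and 112, 139 and 126 CPM with mock (1.0 ± 0.13, adjusted p = 1.26e-05). Of 151 peroxidase symbols 132 matched no gene, so the count covers only the matched ones.

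The level before treatment places these differences. Among the 1338 genes that rose, all 3 mock libraries lay below all 3 libraries of 0 h in 1082 (80.9%), against 24.5% of all genes tested. The AtCEP5 libraries overlapped those of 0 h in 707 of the risen genes (52.8%, against 64.7% of all genes tested). They lay above 0 h in 306 (22.9%, against 16.3%) and below it in 325 (24.3%, against 19%). Among the 1079 genes that fell, mock lay above 0 h in 613 (56.8%, against 23.4% of all genes) and AtCEP5 lay below it in 448 (41.5%, against 19%). Both positions use the same libraries of 0 h and of 12 h as the calls, so they describe the called genes and are no separate test. ASN1, GAT1_2.1, MIOX4, NRT1.8, DIN10 and ProDH are among those with AtCEP5 above 0 h, and BCAT-2 and SEN1 among those where it overlapped 0 h.

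**Figure D4:**
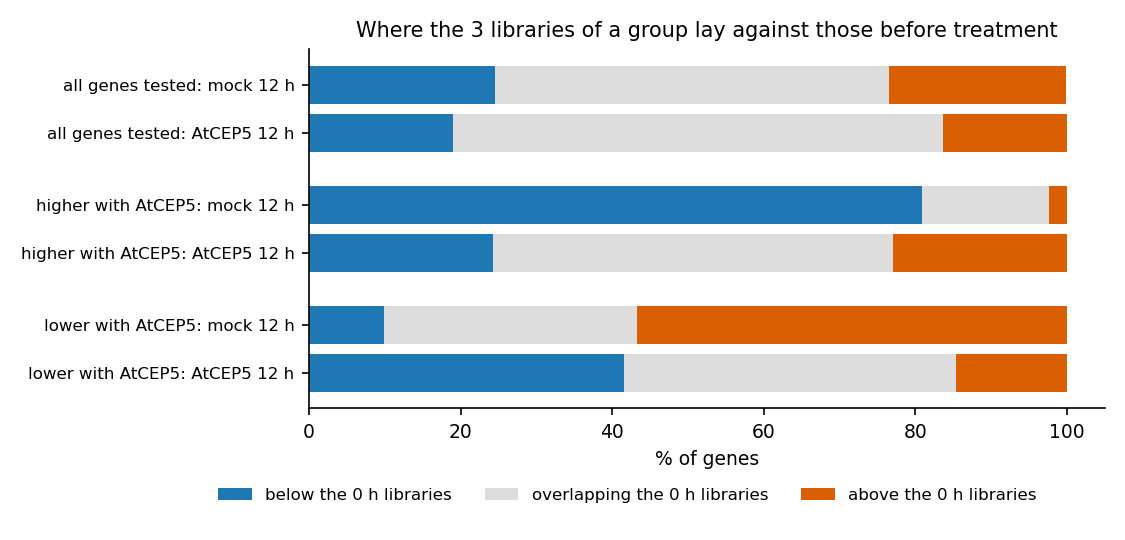
Share of genes (x axis, %) whose 3 mock or 3 AtCEP5 libraries of 12 h all lay below (blue), overlapped (grey) or all lay above (orange) the 3 libraries taken before treatment. Of the genes that rose, 80.9% had mock below 0 h, and of those that fell, 56.8% had mock above 0 h.

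The response at 12 h was then set against those at 6 and 24 h, which share no library with it. Of the 1338 genes that rose, 806 were also among the 1185 that rose at 6 h (5.94% of genes tested) and 591 among the 737 at 24 h (3.7%). Of the 1079 that fell, 610 were among the 1062 at 6 h (5.33%) and 502 among the 821 at 24 h (4.12%). At all 3 times 499 genes rose and 386 fell, and 440 rises and 353 falls passed at 12 h alone. Passing at 12 h alone is no shown difference. In the test of the difference itself, the effect at 12 h was above that at 6 h in 1 gene (0.00502%) and above that at 24 h in 3 genes (0.015%). It was below in 0 genes in either comparison by edgeR (0%), against 365 and 277 genes at an unadjusted p under 0.05, 1 and 0 with DESeq2 and 0 and 0 with limma.

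OSM34 was the gene whose effect grew after 6 h. At 6 h it had 41.8, 41.9 and 47.1 CPM with AtCEP5 and 27.7, 36.5 and 36.3 CPM with mock, a small gap without overlap, and at 12 h the gap was several times wider. The difference of the effects was 2.17 ± 0.25 (log2, adjusted p = 2.22e-04). At 24 h it had 419, 364 and 509 CPM with AtCEP5 and 93.6, 60.9 and 87.3 CPM with mock.

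In NRT1.8, ORA59 and PRX37 the effect was smaller at 24 h than at 12 h, and at 24 h the groups overlapped in all 3 genes. All 3 were already raised at 6 h, by 1.79 ± 0.28, 2.17 ± 0.23 and 1.9 ± 0.13. For PRX37 that was more than at 12 h, though the difference between 6 and 12 h did not pass in any of the 3. NRT1.8 had 5.41, 3.7 and 3.27 CPM with AtCEP5 and 2.73, 3.32 and 2.36 CPM with mock at 24 h, and its effect at 12 h exceeded that at 24 h by 3.27 ± 0.38 (adjusted p = 3.75e-04). At 24 h ORA59 had 15.5, 11.5 and 13.8 CPM with AtCEP5 and 12.7, 9.34 and 8.93 CPM with mock, and the effects differed by 1.95 ± 0.33 (adjusted p = 0.0361). PRX37 had 83.9, 85 and 80.6 CPM with AtCEP5 and 111, 92.9 and 77.5 CPM with mock at 24 h, with a difference of 1.17 ± 0.18 (adjusted p = 0.0145). The calls on ORA59 and PRX37 were lost without single libraries, with an adjusted p of up to 0.234 for ORA59 and 0.0844 for PRX37, while NRT1.8 kept its call without any 1 library. ORA59 lost it in limma on log2(FPKM + 0.5) (adjusted p = 0.0559) and without any 1 mock library of 12 h, AtCEP5 replicate 1 or 2 of 12 h, mock replicate 1 or 2 of 24 h, or AtCEP5 replicate 2 or 3 of 24 h. PRX37 lost it without mock replicate 1 or 3 of 12 h, mock replicate 1 of 24 h, or AtCEP5 replicate 2 or 3 of 24 h.

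**Figure D5:**
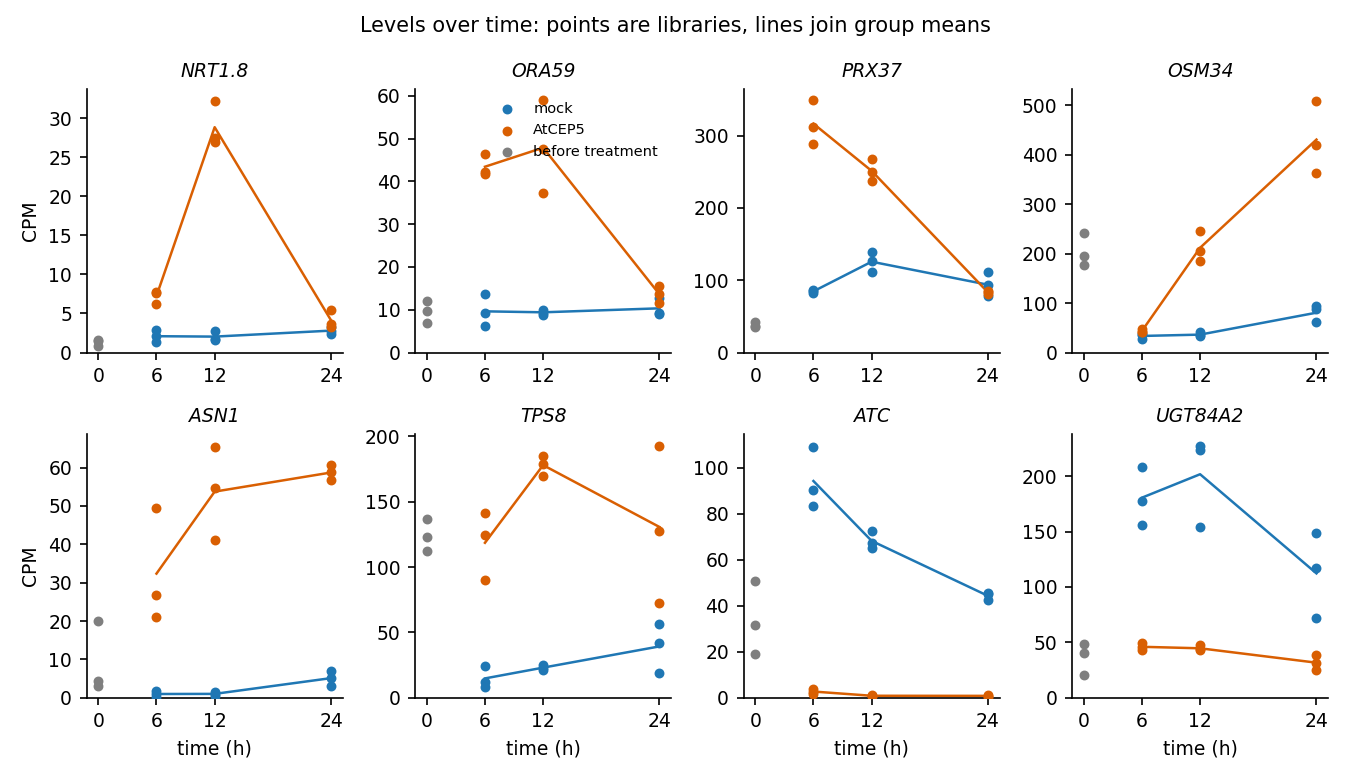
CPM per library (y axis, linear from 0) against hours (x axis) for 8 genes, with grey points before treatment, blue mock, orange AtCEP5 and lines through group means. NRT1.8 peaks at 12 h with AtCEP5, OSM34 separates far more at 12 h than at 6 h, ORA59 and PRX37 meet mock at 24 h, and ATC stays near 0 with AtCEP5 at 6, 12 and 24 h.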

How the data were processed

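The authors deposited gene counts and FPKM values for 21 libraries. Per the labels, roots gave TRIzol RNA and TruSeq poly-A libraries. The submitters' processing notes name STAR 2.7.8a, StringTie 2.1.3 and HTSeq. The genome build is not given in the sources used here, nor is counting by strand. Coordinates are those of TAIR10.1, which holds 32548 of the 32833 loci, 32532 with the same start and end. Deposited FPKM values were each 10 times those that the counts give, and were divided by 10 and used in an alternative only.

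The deposited counts of all 21 libraries were fitted with edgeR 4.0.16 (quasi-likelihood test, TMM scaling, filter on low counts by group, 7 group means, 14 residual degrees of freedom, R 4.3.3). Benjamini-Hochberg adjustment ran over 19938 genes. The test was checked on simulated data. DESeq2 1.42.0, limma 3.58.1 on log2(FPKM + 0.5) and other settings were alternatives. Replicate numbers did not pair the libraries: residuals of same-numbered AtCEP5 and mock libraries correlated at 0.0301, −0.0495 and 0.0296.

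The 44 gene lists, the comparison and the rule for naming genes were chosen with earlier results of these data known. Of 1339 list symbols 236 matched no gene in the reference, 30 were ambiguous and 10 belonged to another gene; 956 loci remained. Lists were counted, not tested, and some genes are in more than 1 list. The rule took, per direction, the 10 largest changes with a symbol, a mean of at least 1 CPM and no overlap, the 8 largest with a mean of at least 100 CPM, per list at most 3 called members, by smallest adjusted p, fixed names, and up to 5 genes per difference between times. Further list members are examples picked with their values known. Of the 129 genes so named 25 overlap a gene on the other strand, among them ASN1, GAT1_2.1, BCAT-2, NRT1.8, TPS13 and CEPR2, and 4 one on the same strand, so their counts are uncertain. Close copies such as GAD3 and GAD4 or ELIP1 and ELIP2 may share reads. CPM are counts scaled with TMM factors. Counting intervals cover counting error only.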

Additional observations from a re-analysis of the deposited data

Results flagged for a closer look

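OSM34, NRT1.8, ORA59 and PRX37 had an effect of AtCEP5 at 12 h that differed from the effect at another time in edgeR's test of the difference. OSM34 was raised more at 12 h than at 6 h, by 2.17 ± 0.25 on the log2 scale. The effect at 12 h exceeded that at 24 h by 3.27 ± 0.38 for NRT1.8, by 1.95 ± 0.33 for ORA59 and by 1.17 ± 0.18 for PRX37. In OSM34 and NRT1.8 the call held in every alternative run, and in ORA59 and PRX37 it did not.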

How the results depend on the processing

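With 1 library left out, 1443–2529 genes passed at 12 h, 877–1515 of them higher and 566–1014 lower with AtCEP5. Other scalings, filters and tools gave 2277–2796 genes, and the share of rises among calls was 53.1–62.4% over all alternatives. Of the 126 named genes that passed, 99 kept their call in each alternative run, 27 lost it in at least 1 and 0 reversed. CEPR2 passed without AtCEP5 replicate 3. The cause of these changes was not tested.

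The differences between times were few and moved with the setting. Against 6 h, DESeq2 called 9 genes, 8 with a higher and 1 with a lower effect at 12 h. Against 24 h, DESeq2 called 7 genes, all 7 with a higher effect at 12 h. Keeping every gene with at least 1 read, or only the groups of the contrast, gave 5 genes against 24 h, all 5 higher. Leaving out 1 library gave 1–7 genes against 24 h, 1–6 of them higher and 0–1 lower.

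Replicate numbers did not pair the libraries. With a replicate block and only the 6 libraries, 2850 genes passed at 12 h, 1528 higher and 1322 lower. Against 6 h the fit with the replicate block called 28 genes, 25 higher and 3 lower. With the block 18 of 27 photosynthesis genes and 7 of 28 aquaporins rose, and CKX7 did not pass. The difference between 12 h and 24 h in PRX37 did not pass either (adjusted p = 0.173). Genes with few reads limit what can be seen, since the 12 h libraries hold 10812662 to 13990847 counts.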
